A study of Rattus norvegicus with 9 samples.

Results

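Of the 12662 genes with a mean level of at least 1 TPM (a transcript level corrected for gene length and scaled to the same total in every library), 59 were ordered opposite to Yap1 across the 3 groups of libraries. They are 0.466% of those genes, out of 18629 genes in the deposited table. A gene belonged to this set when its highest Yap1 WT library lay below its lowest GFP library, its highest GFP library lay below its lowest Yap1 shRNA library, and the group means of both steps were at least 1.2-fold apart. The genes were thus selected on the TPM values of all 9 libraries, and every level and fold of a member given here is a description without a test. The reverse order, in which genes move with Yap1 under the same thresholds, held 109 genes.

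The libraries are bulk RNA-seq of primary cardiomyocytes from neonatal Sprague-Dawley rats, 1 to 2 days old. One group of 3 libraries carried an adenovirus with a Yap1 shRNA, a hairpin against the messenger of Yap1. Another group of 3 carried an adenovirus with Yap1 WT, and the group of 3 used as control carried an adenovirus with GFP. All 3 groups were plated in 10% serum and then kept for 14 h in 1 g/L glucose with 1% serum. They then shared the diabetic medium of 33 mM glucose and 100 nM insulin for 48 h. A virus with a control hairpin and cells in normal glucose were not analysed here, so the hairpin has no hairpin control and every level refers to high glucose and insulin. The labels do not say whether the 3 libraries of a group came from separate cell isolations. P-values then measure only the spread between these samples, which may be technical.

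Yap1 is the transcriptional co-activator at the end of the Hippo kinase cascade. When the kinases are inactive it enters the nucleus and acts through TEAD factors, and active kinases hold it in the cytoplasm. In the heart it is known for driving the growth and proliferation of cardiomyocytes around birth, and Yap-TEAD complexes can activate or repress genes.

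Yap1 itself followed its labels. It measured 32.02, 31.7 and 30.25 TPM in the Yap1 shRNA libraries, 335.46, 533.43 and 375.96 TPM in the Yap1 WT libraries, and 55.89, 53.95 and 52.51 TPM in the GFP libraries. The 3 groups did not overlap. In edgeR's quasi-likelihood test on counts the log2 fold change of Yap1 was −1.03 (SE 0.11, adjusted p = 1.93e-06) for Yap1 shRNA against GFP and 1.77 (SE 0.11, adjusted p = 1.63e-08) for Yap1 WT against GFP. The level of Yap1 in the Yap1 WT libraries counts reads of the viral and the cells' own gene together. Its size depends on the scale. Mean TPM was 415 in Yap1 WT and 54.1 in GFP. In TMM-scaled CPM Yap1 had 559, 812 and 622 in Yap1 WT and 197, 198 and 190 in GFP, a smaller gap. The reads of Yap1 per TPM thus differed between these groups, and the reason was not tested.

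The libraries differed widely outside these genes. Assigned reads per library were 6103221 to 6357403 for Yap1 shRNA, 10960051 to 11497104 for Yap1 WT and 14868180 to 15368473 for GFP. The summed level of 10 cardiomyocyte markers was 2075 to 2472 TPM in Yap1 shRNA, 7077 to 11243 TPM in Yap1 WT and 31539 to 33061 TPM in GFP, so both Yap1 viruses went with lower levels of them. In bulk samples, fewer cells of a type and less RNA per cell cannot be told apart. Of 13708 genes tested, edgeR called 78.3% in either direction for Yap1 shRNA against GFP, 63.8% for Yap1 WT against GFP and 62.5% for Yap1 shRNA against Yap1 WT, each at an adjusted p under 0.05.

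The members spanned low to high expression, and most steps were modest. Their mean over 9 libraries had a median of 6.97 TPM and ran from 1.04 to 245.0 TPM, against a median of 16.2 TPM over all genes of at least 1 TPM. The ratio of Yap1 shRNA to GFP had a median of 1.5 and a range of 1.2 to 16.5. The ratio of Yap1 WT to GFP had a median of 0.725 and a range of 0.155 to 0.833. From one end to the other, Yap1 shRNA over Yap1 WT, the median ratio was 2.22. Of the 59 genes, 33 reached at least 2-fold and 8 reached at least 4-fold between these groups. Over all genes of at least 1 TPM the same median TPM ratios were 1.14 for Yap1 shRNA over GFP, 1.12 for Yap1 WT over GFP and 1.01 for Yap1 shRNA over Yap1 WT.

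In TPM the knockdown step, Yap1 shRNA over GFP, was the larger one in 38 members, and the overexpression step, GFP over Yap1 WT, in 21. In the 38, the median ratio of Yap1 shRNA to GFP was 1.66 and that of GFP to Yap1 WT 1.29. In the 21, these medians were 1.31 and 1.5. This split belongs to the TPM scale. In TMM-scaled CPM the median ratio over all 59 was 1.3 for Yap1 shRNA over GFP and 0.639 for Yap1 WT over GFP. The overexpression step was thus the larger by median there. Yap1 itself differed more between Yap1 WT and GFP than between Yap1 shRNA and GFP on both scales.

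**Figure D1:**
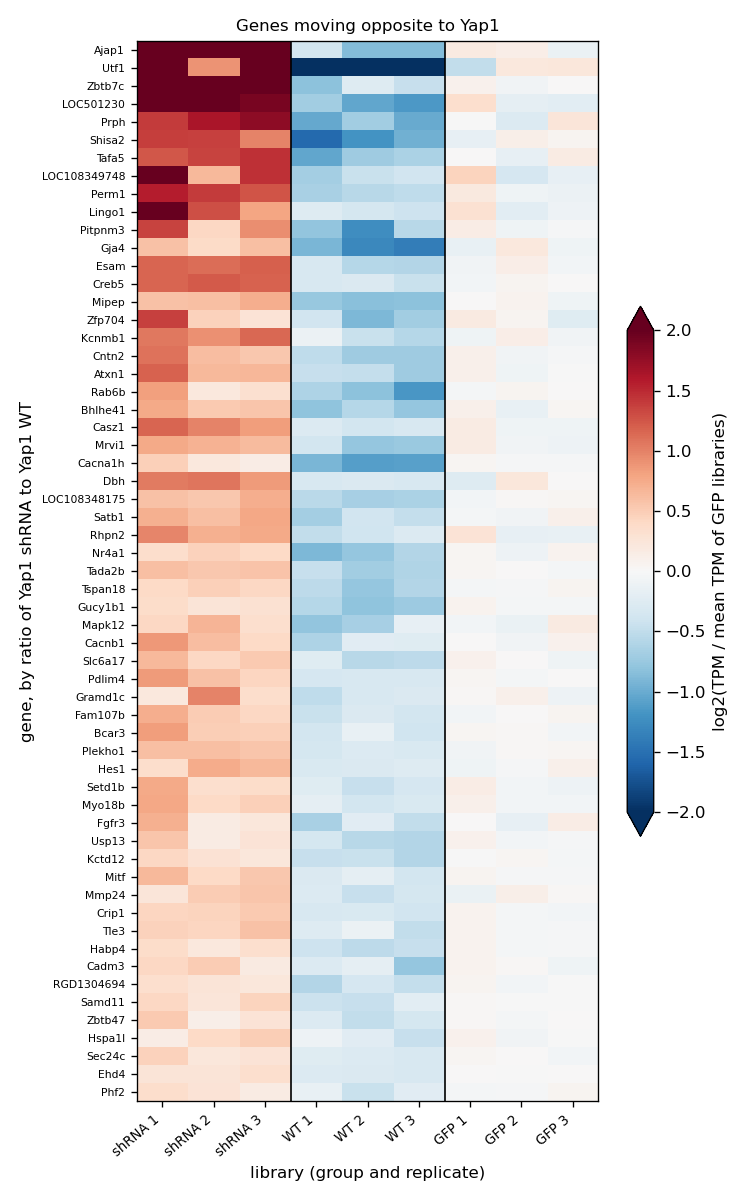
Level of the 59 genes in the 9 libraries, coloured by the log2 ratio of TPM to the mean of the GFP libraries, with 0.01 TPM added and the colour scale ending at −2 and 2. Genes run from the largest ratio of Yap1 shRNA to Yap1 WT at the top (Ajap1, 28.6) to the smallest at the bottom (Phf2, 1.45); libraries stand in columns. Red marks Yap1 shRNA, blue Yap1 WT and pale colours GFP, which is the order that chose the genes.

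Each single step was common in these data, and the combination was not. Groups without overlap and at least 1.2-fold apart, in the direction of the rule, were found for 44.2% of the 12662 genes for Yap1 shRNA over GFP, for 21.1% for Yap1 WT under GFP and for 31.4% for Yap1 shRNA over Yap1 WT. All 59 members pass each of these by construction, so nothing is read from that. Both comparisons with GFP use the same 3 GFP libraries. Under the same thresholds GFP was lowest and Yap1 shRNA highest in 2578 genes (20.4%). Yap1 shRNA was lowest and GFP highest in 1271 (10.0%). By edgeR, 3730 of 13708 genes were called higher than GFP with both viruses and 3777 lower with both. Opposite calls were few, with 157 genes lower in Yap1 WT and higher in Yap1 shRNA, and 150 the reverse.

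The thresholds cut through a continuous range. Just inside the minimum level were Utf1, Pitpnm3 and Ajap1, with means over 9 libraries of 1.04, 1.12 and 1.32 TPM. Just outside it were Dpp6, Tenm4 and Aatk, with 0.497, 0.433 and 0.237 TPM. For the smaller of the 2 steps, Hspa1l, Phf2 and Mitf lay just inside at 1.2, 1.203 and 1.212-fold. Nap1l4, Gab1 and Irx5 lay just outside at 1.197, 1.193 and 1.192-fold.

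On another scale every member kept the overexpression side of the order, and fewer kept the knockdown side. TPM removes gene length and fixes the total, while CPM, counts scaled by library size, are after TMM scaling centred on the bulk of genes. In TMM-scaled CPM all 59 members had every Yap1 WT library below every GFP library, and 42 had every Yap1 shRNA library above every GFP library. The median ratio of Yap1 shRNA to GFP was 1.3 in CPM and that of Yap1 WT to GFP 0.639. For all genes of at least 1 TPM these CPM medians were 0.98 and 0.993, against 1.14 and 1.12 in TPM. The change of scale thus lowered both ratios to GFP over the bulk of genes. That makes the overexpression step easier to pass and the knockdown step harder. The difference between the 2 sides therefore cannot tell which step is firmer. Applied to CPM, the whole rule kept 36 of the 59 genes, which is 61.0%, and these 36 were 45.0% of the 80 genes that met it there. The members that did not meet it in CPM were Ehd4, Hes1, Habp4, Sec24c, Zbtb47, Usp13, Gucy1b1, Tspan18, Phf2, Nr4a1, Cacna1h, Kctd12, Samd11, Fgfr3, Cadm3, Gja4, Mapk12, Rab6b, Zfp704, Mmp24, Hspa1l, Gramd1c and 1 with a provisional symbol. In 18 members the CPM step of Yap1 shRNA over GFP fell short of 1.2-fold, and in 2 the mean of Yap1 shRNA lay under that of GFP.

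**Figure D2:**
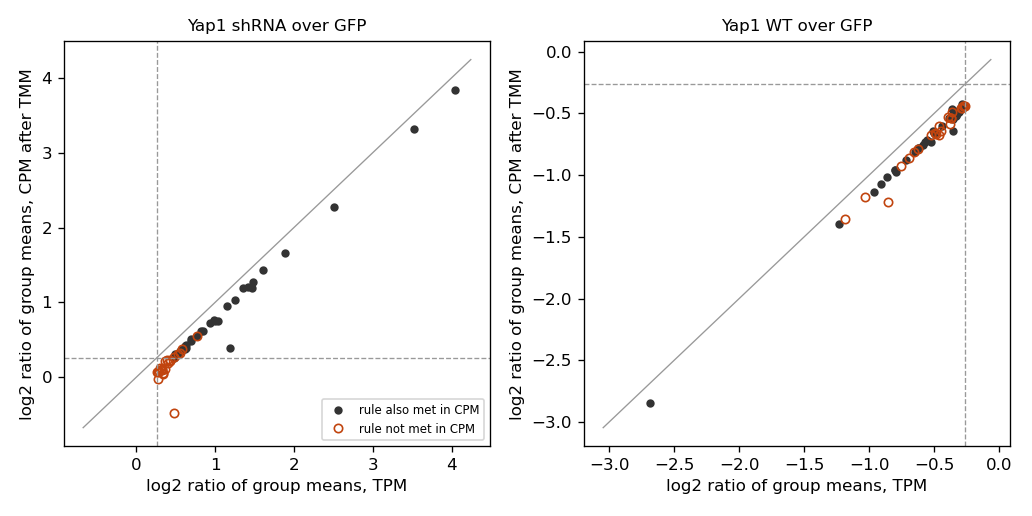
Log2 ratio of group means for each of the 59 genes in TPM (horizontal axis) and in TMM-scaled CPM (vertical axis), for Yap1 shRNA over GFP (left) and Yap1 WT over GFP (right); the solid line marks equality and dashed lines the 1.2-fold step. Filled points are the 36 genes that meet the rule in CPM as well. Points sit below equality on both sides, and in the left panel many open points fall under the dashed horizontal line.

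On counts, edgeR tested 58 members, all but Utf1, which had too few reads. It called 38 members higher in Yap1 shRNA than in GFP (39.2% of all genes tested were called higher and 39.1% lower). It called 54 members lower in Yap1 WT than in GFP (31.8% of all genes were called lower and 32.0% higher), and 57 members higher in Yap1 shRNA than in Yap1 WT (31.3% of all genes). These contrasts chose the members, so the counts describe how far the TPM order carries over to counts and nothing more.

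In 2 members the effective length implied by the deposited values, which is reads divided by FPKM, differed between Yap1 shRNA and GFP by at least 1.1-fold. For Rab6b it was 2817 bases in Yap1 shRNA, 4024 in Yap1 WT and 4616 in GFP. Rab6b, a small GTPase of Golgi transport, had 4.68, 3.09 and 3.34 TPM in Yap1 shRNA, 1.74, 1.51 and 1.18 TPM in Yap1 WT, and 2.59, 2.76 and 2.66 TPM in GFP. In CPM its ratio of Yap1 shRNA to GFP was 0.72, and edgeR called it lower in Yap1 shRNA, the only member called against its TPM order, with a log2 fold change of −0.47. Creb5, a cAMP-responsive bZIP transcription factor, had an implied length of 6895 bases in Yap1 shRNA, 10383 in Yap1 WT and 10575 in GFP. Its ratio of Yap1 shRNA to GFP was 2.28 in TPM and 1.31 in CPM. Between Yap1 shRNA and GFP, a shift of at least 1.1-fold was seen in 3.39% of members and 4.69% of all genes of at least 1 TPM. Between Yap1 WT and GFP it was seen in 2 members, Rab6b and Cadm3. Cadm3 had an implied length of 2019 bases in Yap1 WT and 1760 in GFP, and its ratio of Yap1 WT to GFP was 0.76 in TPM and 0.693 in CPM.

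Promoters of the members were searched for the core of the TEAD binding motif, since TEAD factors are what Yap1 acts through. A RefSeq promoter of the GRCr8 assembly, from 250 bases before to 50 bases after the annotated start, was matched by gene identifier for 50 of the 59 genes. The letters GGAATG, on either strand, occurred in 7 of these 50 promoters (14.0%), against 11.0% of the 10012 promoters of genes of at least 1 TPM and 13.9% of all 27457 rat promoters. Among genes ordered with Yap1 the share was 15.6% of 77 promoters. The 7 matches are shown with 20 bases on either side, read 5′ to 3′ on the strand of the gene, with GGAATG or its reverse complement CATTCC in capitals.
Mipep: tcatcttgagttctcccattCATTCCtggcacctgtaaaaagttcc
Nr4a1: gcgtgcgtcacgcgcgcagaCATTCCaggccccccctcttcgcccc
Kctd12: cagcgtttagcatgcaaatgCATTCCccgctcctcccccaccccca
Mrvi1: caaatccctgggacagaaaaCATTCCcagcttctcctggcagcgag
Bcar3: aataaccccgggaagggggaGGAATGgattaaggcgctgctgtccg
Cadm3: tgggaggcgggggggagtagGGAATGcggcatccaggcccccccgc
Shisa2: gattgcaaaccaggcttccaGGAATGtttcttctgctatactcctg

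In GRCr8 these windows lie at chr15:39102147-39102192 (plus strand, Mipep), chr7:134259907-134259952 (plus, Nr4a1), chr15:86220850-86220895 (minus, Kctd12) and chr1:174528940-174528985 (minus, Mrvi1). The others lie at chr2:213209869-213209914 (plus, Bcar3), chr13:88349811-88349856 (minus, Cadm3) and chr15:37982680-37982725 (plus, Shisa2). The motif began 18 bases before the start site in Bcar3, 114 in Mrvi1, 118 in Cadm3, 150 in Kctd12, 160 in Mipep, 211 in Nr4a1 and 213 in Shisa2. The distance to the start thus differed from gene to gene. A match is a description of letters in a window and says nothing of binding.

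Other motifs gave few matches each. The RBPJ motif GTGGGAA, of the Notch pathway, was found in 5 member promoters (10.0%, against 6.32% of expressed genes), those of Hes1, Usp13, Casz1, Fam107b and Satb1. The E-box CACGTG, bound by factors such as Mitf and Bhlhe41, was found in 4 (8.0% against 9.58%): Bhlhe41, Bcar3, Mapk12 and Tafa5. The AP-1 motif TGANTCA was found in 2 (4.0% against 4.82%), the cAMP response element TGACGTCA in 1 (2.0% against 3.28%) and AAAGGTCA, the motif of Nr4a1, in 1 (2.0% against 0.729%), which was the promoter of Hspa1l. All were searched on both strands; GTGGGAA can overlap GGAATG, but no member promoter held both. Member promoters had a median GC content of 66.2%, against 61.0% for expressed genes and 58.3% for genes ordered with Yap1, and an observed to expected CpG ratio of 0.759, against 0.776 and 0.516.

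Genes that act on transcription made up a larger share of the members than of expressed genes. The deposited annotation marks 10 members as transcription factors, which is 16.9% of them, against 6.62% of all genes of at least 1 TPM and 4.59% of genes ordered with Yap1. By gene ontology terms, DNA-binding transcription factors were 11.9% of members against 5.39%, chromatin organization 10.2% against 4.15%, transcription coregulators 8.47% against 3.45%, cell adhesion 10.2% against 4.15%, and ion channels 6.78% against 1.82%. Mitochondrial genes were 4 of the 59 members and 1515 of the 12662 genes. No member was annotated to innate immunity and inflammation, which held 5.58% of expressed genes and 10.1% of genes ordered with Yap1. The other roles without a member held 0.798% to 3.13% of expressed genes each: phosphatases, ubiquitin transferases, DNA repair, translation, glycosylation and G protein-coupled receptors. Of the 59, 56 had a gene ontology term and 38 fell in at least 1 of the 28 roles; these shares carry no test.

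**Figure D3:**
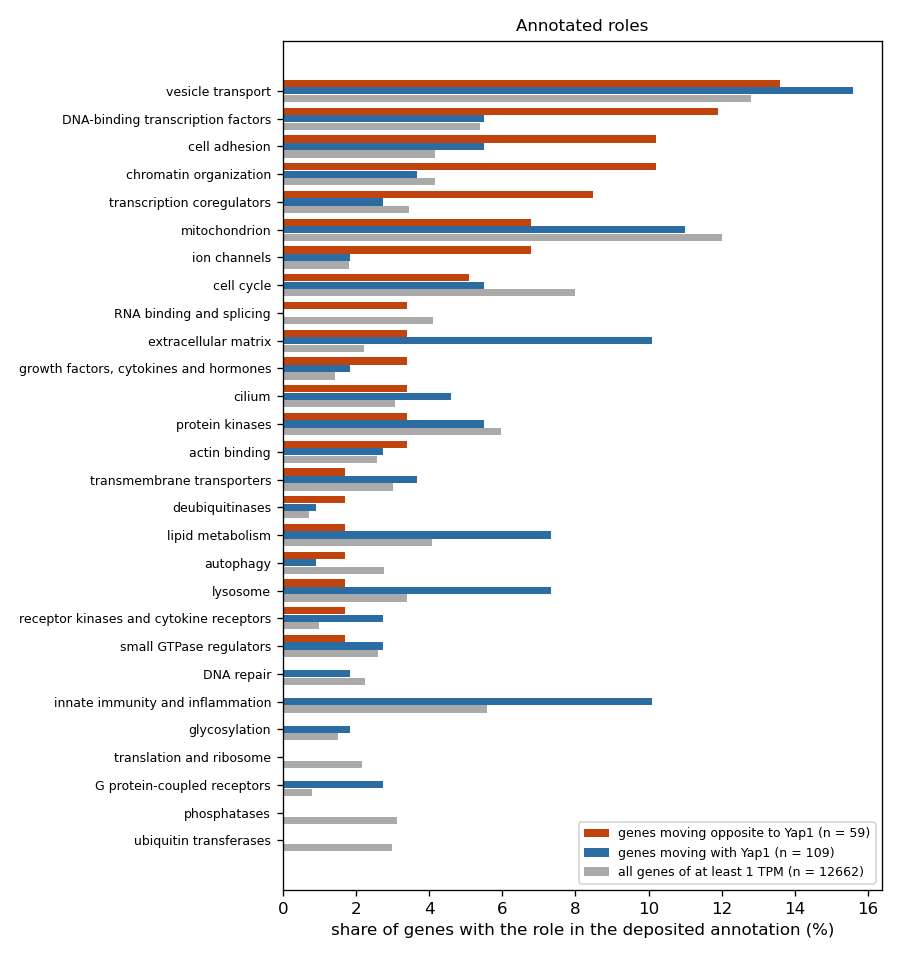
Share of genes annotated to each of 28 roles, in percent of 59 genes moving opposite to Yap1 (red), 109 genes moving with Yap1 (blue) and all 12662 genes of at least 1 TPM (grey). Transcription factors, chromatin organization, cell adhesion and ion channels are longer in red than in grey, and innate immunity is absent in red and 10.1% in blue.

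Among the transcription factors, Zbtb7c had the widest separation of any member of at least 5 TPM. Zbtb7c, a BTB-domain zinc finger factor, measured 47.25, 45.7 and 48.05 TPM in Yap1 shRNA, 2.3, 3.41 and 2.96 TPM in Yap1 WT, and 4.31, 3.87 and 4.09 TPM in GFP. The Yap1 shRNA libraries stood 11.5-fold over GFP and 16.3-fold over Yap1 WT, while Yap1 WT and GFP lay close together without touching. The knockdown step was thus nearly the whole of its range, and in CPM the same ratio over GFP was 9.93. Zbtb7c lies at chr18:72124955-72462293 of rn6 on the plus strand.

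Bhlhe41 (also called Dec2), a repressor of the circadian clock, had 17.67, 15.09 and 15.39 TPM in Yap1 shRNA, 6.02, 7.06 and 6.11 TPM in Yap1 WT, and 11.28, 9.45 and 10.75 TPM in GFP. Nr4a1 (Nur77), an orphan nuclear receptor induced early by many stimuli, had 16.62, 17.83 and 17.05 TPM in Yap1 shRNA, 6.93, 7.61 and 8.68 TPM in Yap1 WT, and 13.28, 12.16 and 13.65 TPM in GFP. In Nr4a1 the overexpression step was the larger, with a ratio of Yap1 WT to GFP of 0.594 and of Yap1 shRNA to GFP of 1.32. In CPM the knockdown step of Nr4a1 was 1.14 and missed the 1.2-fold minimum, whereas Bhlhe41 met the whole rule there.

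Casz1, a zinc finger factor needed for heart development, had 22.22, 19.67 and 17.71 TPM in Yap1 shRNA, 8.21, 7.71 and 7.9 TPM in Yap1 WT, and 11.11, 9.29 and 9.35 TPM in GFP. Its Yap1 shRNA mean was 2.0 times that of GFP, and Yap1 WT and GFP were separated by about 1 TPM between their nearest libraries. Hes1, a bHLH repressor and main target of Notch signalling, was the most abundant factor, at 93.8 ± 13.1 TPM in Yap1 shRNA, 51.1 ± 0.83 TPM in Yap1 WT and 62.4 ± 4.25 TPM in GFP (mean ± SD, n = 3 libraries each). The Hes1 libraries of Yap1 shRNA were spread from 79.25 to 104.78 TPM, and the highest GFP library had 67.0 TPM. In CPM these groups overlapped, since the lowest Yap1 shRNA library had 62.5 and the highest GFP library 64.1, and Hes1 did not meet the rule there.

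The remaining factors followed with ratios of Yap1 shRNA to Yap1 WT between 1.6 and 2.92. Creb5, described for its length shift, had 2.92. Satb1, which organises chromatin loops, had 11.5 ± 0.68 TPM in Yap1 shRNA, 4.98 ± 0.503 TPM in Yap1 WT and 7.09 ± 0.472 TPM in GFP. Mitf, a bHLH-zipper factor of pigment cells that is also expressed in the heart, had 7.47 ± 0.616, 4.27 ± 0.282 and 5.17 ± 0.18 TPM in the same order of groups and sat near the minimum step. The zinc finger genes Zfp704 and Zbtb47 had ratios of 2.69 and 1.6. In Zfp704 1 Yap1 shRNA library stood apart, at 5.92 TPM against 3.17 and 2.78 TPM in the others.

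Coregulators and chromatin genes formed another group. Tada2b, an adaptor of the SAGA acetyltransferase complex, had 23.72, 22.66 and 23.04 TPM in Yap1 shRNA, 11.38, 9.58 and 10.28 TPM in Yap1 WT, and 16.0, 15.67 and 15.2 TPM in GFP. Its libraries agreed within about 2 TPM in each group, and both steps were close to 1.5-fold, with 1.48 for Yap1 shRNA over GFP and 1.5 for GFP over Yap1 WT. Tle3, a Groucho-family corepressor that Hes proteins recruit, had 13.5 ± 0.798, 7.86 ± 1.04 and 9.57 ± 0.361 TPM in Yap1 shRNA, Yap1 WT and GFP. Setd1b, a histone H3 lysine methyltransferase, had a ratio of Yap1 shRNA to Yap1 WT of 1.8, and Phf2, a histone demethylase, the smallest of all members at 1.45. Atxn1, ataxin 1, a binding partner of the repressor Capicua, had a ratio of 2.64.

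Utf1, a chromatin-associated factor of embryonic stem cells, was at the lower limit of detection. It had 3.04, 1.2 and 2.91 TPM in Yap1 shRNA, 0.0, 0.15 and 0.15 TPM in Yap1 WT, and 0.45, 0.74 and 0.75 TPM in GFP. These levels rest on 24 reads in all 3 Yap1 shRNA libraries, 2 in Yap1 WT and 18 in GFP. Per library size, the ratio of Yap1 shRNA to Yap1 WT was 21.4, with an exact 95% interval of 5.31 to 187.0 that covers counting error only. Its ratio of Yap1 WT to GFP of 0.155 is the low end of the range given above for the members.

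Ion channel genes were 4 members, and the potassium channel subunit Kcnmb1 changed most on the knockdown side. Kcnmb1, the beta subunit of the BK channel in smooth muscle, had 21.32, 19.49 and 22.74 TPM in Yap1 shRNA, 9.53, 7.54 and 6.94 TPM in Yap1 WT, and 9.73, 11.3 and 9.76 TPM in GFP. The highest Yap1 WT library and the lowest GFP library differed by only 0.2 TPM, while every Yap1 shRNA library was well above. Cacna1h, the T-type calcium channel alpha subunit of the fetal heart, moved mostly on the other side. It had 18.54, 15.45 and 14.82 TPM in Yap1 shRNA, 7.12, 6.23 and 6.33 TPM in Yap1 WT, and 13.74, 13.21 and 13.18 TPM in GFP, with a ratio of Yap1 WT to GFP of 0.49 and of Yap1 shRNA to GFP of 1.22. In CPM that last ratio was 1.06.

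Gja4, connexin 37 of gap junctions, had the lowest ratio of Yap1 WT to GFP, 0.439, among members averaging at least 3 TPM. It had 5.8, 5.03 and 5.87 TPM in Yap1 shRNA, 2.05, 1.58 and 1.47 TPM in Yap1 WT, and 3.49, 4.49 and 3.64 TPM in GFP. Cacnb1, a calcium channel beta subunit, had 3.52 ± 0.587, 1.77 ± 0.257 and 2.26 ± 0.115 TPM in Yap1 shRNA, Yap1 WT and GFP. Kctd12, an auxiliary subunit of GABA-B receptors, had 13.9 ± 0.93, 7.93 ± 0.407 and 11.2 ± 0.291 TPM.

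The soluble guanylate cyclase pathway held 3 of these genes next to Kcnmb1. Gucy1b1, the beta subunit of the nitric oxide receptor that makes cGMP, had 37.52, 34.89 and 35.85 TPM in Yap1 shRNA, 19.61, 16.72 and 17.6 TPM in Yap1 WT, and 30.64, 28.35 and 28.41 TPM in GFP. Its overexpression step, a ratio of Yap1 WT to GFP of 0.617, was larger than its knockdown step of 1.24. In CPM that knockdown step was 1.07, and Gucy1b1 did not meet the rule. Mrvi1, a substrate of cGMP-dependent kinase at the inositol trisphosphate receptor, had 10.0, 9.54 and 9.2 TPM in Yap1 shRNA, 4.56, 3.43 and 3.51 TPM in Yap1 WT, and 6.63, 5.62 and 5.47 TPM in GFP. With Creb5 and Kcnmb1 these are 4 of the 118 expressed genes of the KEGG cGMP-PKG pathway (3.39%, against 0.466% of all genes of at least 1 TPM). The pathway was picked out after the values were seen and has no test. The summed level of 9 smooth muscle and pericyte markers was 4720 to 5055 TPM in Yap1 shRNA, 4848 to 6558 TPM in Yap1 WT and 9927 to 10341 TPM in GFP, which is not the order of these 4 genes. That sum is mostly Acta2, at 1991, 2609 and 5456 TPM, and Tagln, at 2288, 2443 and 3818 TPM, in the same order of groups. Of the 8 markers tested by edgeR, 7 were called lower and 1 higher in Yap1 shRNA than in GFP. In Yap1 WT, 7 were called lower and 0 higher. Myh11 averaged 22.6, 14.1 and 34.2 TPM and Notch3 16.2, 11.3 and 22.6 TPM, both highest in GFP. Mcam, at 320.0, 222.0 and 233.0 TPM, had group means in the order of the 4 genes, and Rgs5 averaged 4.11, 2.75 and 1.57 TPM. The part of these cells in the values of the 4 genes was not tested.

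Cell adhesion genes covered the widest range of ratios. Ajap1, a protein of adherens junctions, had 3.92, 3.32 and 3.63 TPM in Yap1 shRNA, 0.16, 0.11 and 0.11 TPM in Yap1 WT, and 0.24, 0.23 and 0.19 TPM in GFP. It was close to 0 outside the knockdown, with 102 reads in the Yap1 shRNA libraries, 7 in Yap1 WT and 17 in GFP, and its ratio of Yap1 shRNA to GFP of 16.5 was the highest of the 59. The gap between Yap1 WT and GFP in Ajap1 rests on those few reads.

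Esam, an adhesion molecule of endothelial cells and platelets, had 16.77, 16.23 and 17.01 TPM in Yap1 shRNA, 5.94, 5.04 and 4.96 TPM in Yap1 WT, and 7.1, 8.13 and 7.15 TPM in GFP. The Yap1 shRNA libraries agreed within 1 TPM and lay at 2.23 times GFP. Esam is 1 of 9 endothelial markers, whose summed level was 192 to 198 TPM in Yap1 shRNA, 194 to 205 TPM in Yap1 WT and 186 to 199 TPM in GFP. That sum is mostly Eng, at 156.0, 172.0 and 174.0 TPM in the same order of groups; of the 8 other markers, 6 were called higher and 2 lower in Yap1 shRNA than in GFP, and 4 higher and 1 lower in Yap1 WT than in GFP. Among the defining markers, Pecam1 averaged 1.74, 1.15 and 0.757 TPM and Cdh5 2.6, 1.47 and 0.58 TPM in Yap1 shRNA, Yap1 WT and GFP, which is not the order of Esam. The part of endothelial cells in the values of Esam and Gja4 was not tested.

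Cadm3, an immunoglobulin-type adhesion molecule, had 5.97 ± 0.67 TPM in Yap1 shRNA, 3.51 ± 0.73 TPM in Yap1 WT and 4.62 ± 0.271 TPM in GFP, and Mmp24, a membrane-bound metalloprotease, 2.79 ± 0.312, 1.59 ± 0.11 and 2.06 ± 0.181 TPM. Both missed the 1.2-fold knockdown step in CPM. Tspan18, a tetraspanin, had 34.4 ± 1.08, 16.6 ± 1.45 and 25.5 ± 0.972 TPM.

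Several members are genes of striated muscle, while the cardiomyocyte markers themselves were lowest in Yap1 shRNA. Perm1, a regulator of mitochondrial genes induced by PGC-1 and ERR factors in muscle, had 11.28, 10.01 and 9.08 TPM in Yap1 shRNA, 2.42, 2.58 and 2.66 TPM in Yap1 WT, and 4.33, 3.57 and 3.5 TPM in GFP. Yap1 shRNA was 2.66 times GFP, and no library of one group reached another. Perm1 overlaps Plekhn1 on the opposite strand by 1488 bases, and the sources used here do not state whether counting used strand. Myo18b, an unconventional myosin of the sarcomere, had 42.72, 32.84 and 34.78 TPM in Yap1 shRNA, 22.08, 19.32 and 20.18 TPM in Yap1 WT, and 26.75, 23.84 and 24.04 TPM in GFP. Its Yap1 WT and GFP libraries were separated by less than 2 TPM.

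Mipep, a peptidase that trims proteins imported into the mitochondrial matrix, had 23.43, 23.8 and 25.92 TPM in Yap1 shRNA, 9.28, 8.8 and 8.89 TPM in Yap1 WT, and 15.8, 16.44 and 14.86 TPM in GFP. Both its steps exceeded 1.5-fold, at 1.55 for Yap1 shRNA over GFP and 1.75 for GFP over Yap1 WT, which held for 13 of the 59 genes. Mapk12, the p38 gamma kinase enriched in muscle, had 4.95 ± 0.616, 2.47 ± 0.592 and 3.55 ± 0.399 TPM in Yap1 shRNA, Yap1 WT and GFP. Pdlim4, a PDZ and LIM protein of actin fibres, had 24.1 ± 3.57, 12.4 ± 0.0862 and 15.6 ± 0.356 TPM.

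**Figure D4:**
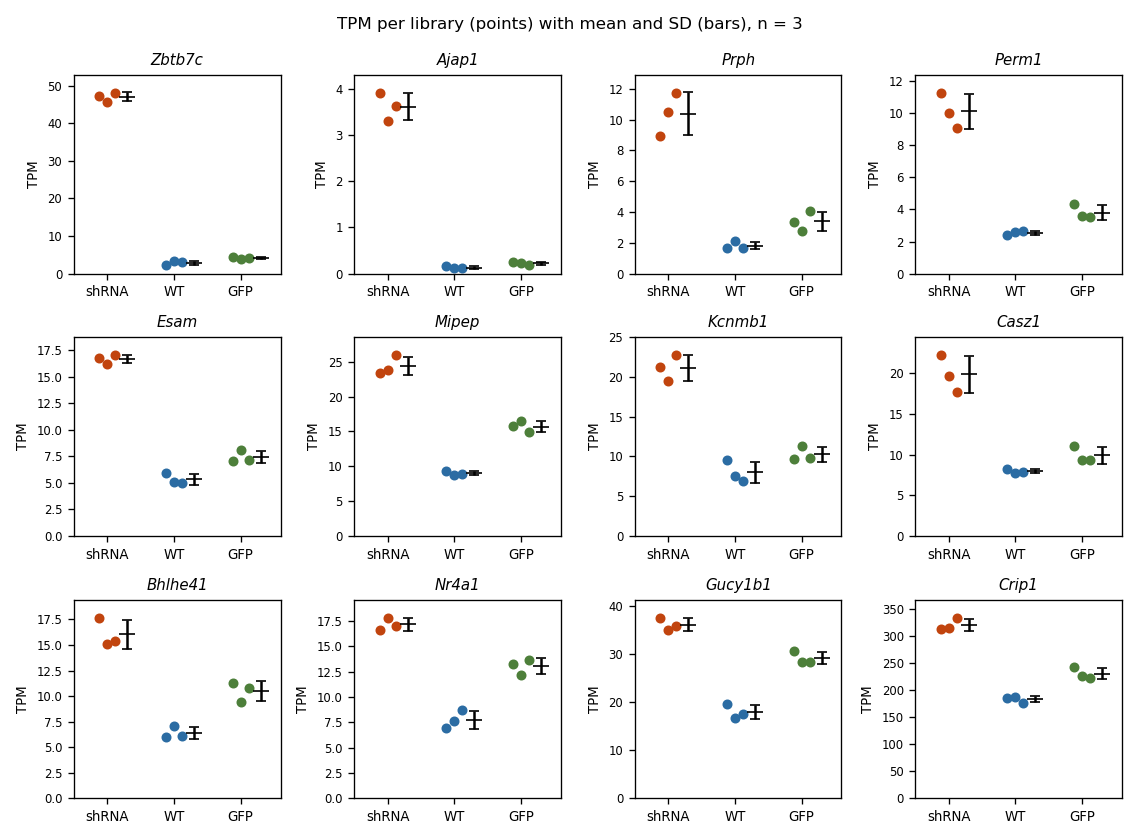
TPM in each library (points) with the mean and SD of the 3 libraries of a group (bars) for 12 members, in Yap1 shRNA (red), Yap1 WT (blue) and GFP (green); vertical axes start at 0 and differ between panels. Zbtb7c, Ajap1 and Prph are dominated by the knockdown, at 47.0, 3.62 and 10.4 TPM on average, and Nr4a1 and Gucy1b1 by the gap between Yap1 WT and GFP.

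Genes best known from neurons were also among the members. Prph, peripherin, an intermediate filament of peripheral neurons, had 8.96, 10.48 and 11.73 TPM in Yap1 shRNA, 1.66, 2.09 and 1.68 TPM in Yap1 WT, and 3.37, 2.79 and 4.03 TPM in GFP. Its ratio of Yap1 shRNA to Yap1 WT of 5.74 was the second highest among members of at least 5 TPM. Dbh, dopamine beta-hydroxylase of noradrenaline synthesis, had 8.91, 9.12 and 7.83 TPM in Yap1 shRNA, 3.47, 3.56 and 3.5 TPM in Yap1 WT, and 3.62, 5.09 and 4.36 TPM in GFP. The lowest GFP library of Dbh lay just above the Yap1 WT libraries.

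Cntn2, contactin 2, a cell adhesion protein of axons that also marks the conduction system of the mouse heart, had 10.53, 7.63 and 7.22 TPM in Yap1 shRNA, 3.5, 3.05 and 3.03 TPM in Yap1 WT, and 5.35, 4.73 and 4.89 TPM in GFP. Slc6a17, a transporter of synaptic vesicles, had a ratio of Yap1 shRNA to Yap1 WT of 1.95. The ratio was 4.44 for Tafa5, a secreted chemokine-like protein, and 3.56 for Lingo1, a membrane protein that limits axon growth. In Lingo1 the Yap1 shRNA libraries were spread from 1.91 to 4.64 TPM. The summed level of 7 neural and glial markers was 137 to 150 TPM in Yap1 shRNA, 46.1 to 56.1 TPM in Yap1 WT and 30.9 to 31.3 TPM in GFP. It was mostly Tubb3, at 130.0, 45.0 and 26.6 TPM. Sox10, a factor of glial cells, averaged 0.237, 0.327 and 0.387 TPM in the same order of groups. These markers were thus highest in Yap1 shRNA like the members, but lowest in GFP, where the members were intermediate, and their part in the values was not tested.

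The 6 most abundant members were Crip1, Ehd4, Plekho1, Hes1, described above, Habp4 and Sec24c. Crip1, a LIM-domain protein, averaged 320.0 ± 11.5 TPM in Yap1 shRNA, 183.0 ± 5.92 TPM in Yap1 WT and 231.0 ± 10.7 TPM in GFP. Ehd4, an endocytic ATPase, averaged 229.0 ± 6.57, 154.0 ± 2.65 and 188.0 ± 0.833 TPM in the same order of groups. Plekho1, a PH-domain protein that binds casein kinase, had 118.45, 117.38 and 114.68 TPM in Yap1 shRNA, 60.77, 64.54 and 63.01 TPM in Yap1 WT, and 73.65, 79.12 and 80.18 TPM in GFP. Plekho1 and Crip1 met the rule in CPM, and Ehd4 did not, with a ratio of Yap1 shRNA to GFP of 1.05 there.

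Habp4, an RNA- and hyaluronan-binding protein, and Sec24c, a coat protein of vesicles leaving the endoplasmic reticulum, also fell short of the rule in CPM, with knockdown steps of 1.09 and 1.08. In TPM, Habp4 had 59.6 ± 3.3, 35.0 ± 1.33 and 48.3 ± 1.85 and Sec24c 42.5 ± 3.82, 28.0 ± 0.794 and 33.9 ± 1.19 in Yap1 shRNA, Yap1 WT and GFP. Usp13, a deubiquitinase, had 41.66, 31.62 and 34.32 TPM in Yap1 shRNA, 22.25, 19.33 and 18.93 TPM in Yap1 WT, and 29.9, 27.13 and 27.86 TPM in GFP. The lowest Yap1 shRNA library of Usp13 was within 2 TPM of the highest GFP library.

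By KEGG, the pathway with the most members was MAPK signalling, with 6 of its 236 expressed genes (2.54%, against 0.466% of all genes of at least 1 TPM). These were Cacna1h, Nr4a1, Cacnb1, Hspa1l, Fgfr3 and Mapk12; the pathway was picked out after the values were seen and has no test. Fgfr3, a receptor tyrosine kinase for fibroblast growth factors, had 7.64, 5.27 and 5.46 TPM in Yap1 shRNA, 2.98, 4.0 and 3.31 TPM in Yap1 WT, and 4.71, 4.18 and 5.17 TPM in GFP, so its groups nearly met on both sides. Shisa2, which holds back the maturation of FGF and Wnt receptors in the endoplasmic reticulum, had 5.03, 4.98 and 3.85 TPM in Yap1 shRNA, 0.65, 0.84 and 0.99 TPM in Yap1 WT, and 1.73, 2.09 and 2.0 TPM in GFP. Both steps of Shisa2 exceeded 2-fold, on 42 reads in Yap1 shRNA, 15 in Yap1 WT and 49 in GFP. Bcar3, an adaptor of integrin signalling, and Rhpn2 had ratios of Yap1 shRNA to Yap1 WT of 1.88 and 2.3.

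The other named members were Fam107b, Samd11, Gramd1c, Pitpnm3 and Hspa1l, with ratios of Yap1 shRNA to Yap1 WT of 1.9, 1.67, 1.91, 3.49 and 1.53. In Gramd1c, a sterol-binding protein of the endoplasmic reticulum, 1 Yap1 shRNA library had 3.32 TPM and the others 1.93 and 2.11 TPM, just above the highest GFP library at 1.79 TPM. Hspa1l, a member of the Hsp70 family, overlaps Hspa1b and class I histocompatibility genes on the opposite strand and shares sequence with its paralogs, so its value is uncertain. Samd11 overlaps Noc2l, Rhpn2 overlaps Faap24, Cacna1h overlaps Tpsg1, and Pitpnm3 and Gramd1c overlap further genes. A further 4 members carry provisional symbols and are counted only.

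The members were spread over the genome and were longer by median than expressed genes. Chromosomes 2 and 7 held 6 each, which is 0.711% and 0.76% of their expressed genes, against 0.466% of all. Chromosomes 16, 19 and X, with 359, 360 and 397 expressed genes, held none. Samd11 and Perm1 lie 24.9 kb apart on chromosome 5, and no other pair was closer than 1134 kb. Members had a median implied length of 3189 bases and a median genomic span of 45.7 kb, against 2176 bases and 22.6 kb for expressed genes and 2540 bases and 30.5 kb for genes ordered with Yap1.

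Whichever library was left out, most members still met the rule. Leaving out a library can only loosen the condition of no overlap, so members are lost only through the minimum fold or level. The second Yap1 WT library had the most Yap1, and 19 of the 59 members were lowest of their group there (32.2%, against 35.7% of expressed genes). The first Yap1 shRNA library was the highest of its group for 36 members (61.0%, against 52.2% of expressed genes). Without that library 56 genes met the rule, of which 48 were members. The first GFP library was the highest of its group for 34 members (57.6%, against 46.0% of expressed genes). Without it 62 genes met the rule, of which 49 were members. Without the first Yap1 WT library 81 genes met it, of which 58 were members. The median coefficient of variation of the members was 9.84% in Yap1 shRNA, 8.99% in Yap1 WT and 6.09% in GFP, against 9.5%, 7.83% and 5.82% for expressed genes.

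The other genes of the pathways that members belong to are given by counts. No member was among the 23 tested Yap-TEAD targets or the 24 tested Hippo genes, and with members at 0.466% of expressed genes nothing is read from lists of this size. Of the Yap-TEAD targets, 11 were called higher and 8 lower in Yap1 shRNA than in GFP, and 10 higher and 9 lower in Yap1 WT than in GFP, by edgeR against backgrounds of 39.2%, 39.1%, 32.0% and 31.8% of genes. Of the 19 circadian clock genes besides Bhlhe41, 16 were called higher and 3 lower in Yap1 shRNA, and 11 higher and 2 lower in Yap1 WT. The AP-1 and EGR factors besides Nr4a1 were 14 of 15 higher in Yap1 shRNA and 11 of 15 higher in Yap1 WT, with 1 lower in Yap1 WT.

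Notch genes besides Hes1 split evenly, with 10 of 19 called higher and 8 lower in Yap1 shRNA and 8 higher and 6 lower in Yap1 WT. Of 33 ion channel genes besides Cacna1h, 7 were called higher and 19 lower in Yap1 shRNA, and 5 higher and 19 lower in Yap1 WT. Of 54 chromatin modifiers besides Setd1b, 31 were called higher and 14 lower in Yap1 shRNA, and 23 higher and 13 lower in Yap1 WT. Autophagy genes besides Mitf gave 15 higher and 9 lower of 28 in Yap1 shRNA, and 11 and 9 in Yap1 WT. Growth factor and cytokine receptors besides Fgfr3 gave 9 higher and 12 lower of 28 in Yap1 shRNA, and 7 and 11 in Yap1 WT. The median log2 fold change over all 13708 genes was −0.01 for Yap1 shRNA against GFP and 0.0 for Yap1 WT against GFP.

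Sirt1, the deacetylase named in the title of the study, was not a member. It had 48.31, 41.82 and 45.65 TPM in Yap1 shRNA, 13.33, 16.89 and 13.8 TPM in Yap1 WT, and 9.06, 8.88 and 8.63 TPM in GFP. It was higher than in GFP with both viruses, by a log2 fold change of 2.14 (SE 0.09, adjusted p = 1.56e-10, edgeR) in Yap1 shRNA and 0.56 (SE 0.09, adjusted p = 0.00012, edgeR) in Yap1 WT, and so failed the overexpression step of the rule.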

How the data were processed

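Bulk RNA-seq of 9 libraries, 3 per group, was analysed from the authors' deposited gene table. The authors deposited estimated counts (expected counts), TPM and FPKM per gene and library, and log2 ratios with p-values and q-values of their own comparisons, which were not used as results. The authors made the expected counts, TPM and FPKM per gene before deposit; the submitters' processing notes name RSEM 1.3.1, Bowtie2 and HISAT2, the rn6 genome and DESeq2 1.4.5 without their roles. Which step each tool did, and whether counting used strand, is not given in the sources used here. Expected counts were rounded and tested with edgeR 4.0.16 (quasi-likelihood, TMM scaling, all 3 groups in 1 fit, Benjamini-Hochberg adjusted p under 0.05; R 4.3.3) over 13708 genes. DESeq2 1.42.0, limma 3.58.1 on log2(TPM + 1), other scalings, filters, thresholds and leaving out each library were alternatives. The fits were tested on simulated data. Replicate numbers did not pair libraries: same-numbered libraries deviated with correlations of −0.03 to 0.09.

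The members and the 48 lists and 28 roles were chosen with earlier results of these data known. The genes named by rule are Yap1 and Sirt1, the 10 members of at least 5 TPM with the largest ratio of Yap1 shRNA to Yap1 WT, the 6 with the highest level, the 4 with the highest level in each role with at least 5 members, and the 3 next to each threshold on either side. All other members named in the report were added after their values were seen, so that every member with an established symbol is described. Total reads per library were 6103221 to 15368473, and intervals cover counting error only. Sequences are RefSeq's, on GRCr8; gene coordinates are those of the deposited table on rn6.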

Additional observations from a re-analysis of the deposited data

How the results depend on the processing

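The number of genes moving opposite to Yap1 was 59, and it was 39 with a minimum of 5 TPM, 144 without a minimum fold and 13 with 1.5-fold steps. In CPM the rule was met by 80 genes after TMM scaling, 75 after DESeq2-type scaling and 41 by library size alone, of which 36, 37 and 37 were members. Leaving out 1 library in turn gave 54 to 81 genes. The edgeR counts of genes called in either direction were then 10410 to 10939 for Yap1 shRNA against GFP, 7991 to 8979 for Yap1 WT against GFP and 7934 to 8525 for Yap1 shRNA against Yap1 WT. With the replicate number as a block these counts were 10752, 8812 and 8590, against 10733, 8751 and 8562 without it. The share of called genes that was higher in Yap1 WT than in GFP was 50.2%, but 62.8% by library size alone and 65.2% with limma on log2(TPM + 1); for Yap1 shRNA against Yap1 WT it was 50.1%, 40.2% and 54.3%. Of 270 recomputed ratios of Yap1 shRNA to Yap1 WT, for the 27 members named by rule, 25 moved by more than 1 SD and 0 changed direction, while the ratio of Yap1 shRNA to GFP turned in CPM for 2 of the 59 members, among them Rab6b (1.39 in TPM, 0.72 in CPM); the ratios by library size alone were added after seeing the data. Of 512 counts over lists, 17 moved by over 1.5 times. The 3 libraries per group, and the few reads of Utf1, Ajap1 and Shisa2, limit the precision.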
